A study of Mus musculus with 9 samples.

Results

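Prostaglandins and leukotrienes are signalling lipids made from arachidonic acid. Phospholipase A2 enzymes cut the acid from membrane lipids, the cyclooxygenases Ptgs1 and Ptgs2 turn it into prostaglandin H, and terminal synthases turn that into prostaglandin E, thromboxane or other prostanoids. In the other branch the 5-lipoxygenase Alox5, helped by its partner protein Alox5ap, starts the synthesis of leukotrienes. Macrophages are a main source of both kinds of lipid, and prostaglandin E acts back on them through the receptors Ptger2 (EP2) and Ptger4 (EP4), which raise cyclic AMP.

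The 10 genes described here are Pla2g4a, Ptgs1, Ptgs2, Ptges, Ptges2, Ptges3, Tbxas1, Alox5ap, Ptger2 and Ptger4, taken by symbol from 50600 genes in the deposited tables, and each matched 1 row. RNA came from RAW-Blue cells, a mouse macrophage reporter line, which is a single line and not primary tissue. The 3 libraries of the None group had no stimulus, and the 3 of the LPS group were given lipopolysaccharide (LPS), a cell wall component of Gram-negative bacteria, at 1 µg/ml for 24 hours. All groups grew in DMEM with serum, penicillin-streptomycin, Normocin and Zeocin. Of the 9 samples that the labels describe, the 3 pretreated for 16 hours with plant nanovesicles before LPS (LPS-PjELNs) were not analysed here. No label says that replicates were separate cultures, so the p-values measure the spread between these libraries, which may be technical.

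Library totals ran from 14650825 to 17665201 rounded counts. All 10 macrophage markers on the list had a mean over both groups of at least 1 CPM (counts scaled to a common library size, here by the trimmed mean of M-values, TMM), and their summed level was 12291 to 13776 CPM in None and 22379 to 23995 CPM in LPS. Most of that sum was Lyz2, at 7932 to 9041 CPM in None and 16157 to 17178 CPM in LPS, while Csf1r was lower in LPS, at 702 to 721 CPM against 1653 to 1986 CPM. All 5 mast cell markers were at 0 counts. The defining T cell markers Cd3d, Cd3e and Cd3g and the neutrophil markers Ly6g and Mpo were also at 0. The summed neutrophil list was 0.155 to 0.271 CPM in None and 14.1 to 17.4 CPM in LPS, nearly all of it from S100a8, the only 1 of its 5 genes with a mean of 1 CPM or more. The summed T cell list was 1.40 to 2.22 CPM in None and 3.84 to 6.42 CPM in LPS, mostly from the kinase gene Lck. The part of these lists in the results was not tested.

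Ptgs2 and Ptges rose far with LPS, Pla2g4a rose less, Ptgs1 fell, and Ptger2 had counts in the LPS libraries alone. Alox5ap, Ptges3 and Ptger4 were called slightly higher, by amounts that depend on the scaling. Ptges2 was not called and Tbxas1 was too low to test. In the test across all genes, 9 of the 10 passed the filter on low counts, of which 7 were called higher and 1 lower at an adjusted p under 0.05. Of all 11916 genes tested 69.1% were called, 34% as higher and 35.1% as lower. The count is a description only, since Ptger2 passed the filter through its LPS libraries alone. The median log2 fold change of the 9 genes was 0.33, also with Ptger2 set at its lower bound, against -0.03 for all genes tested. In 8 of the 9 the CPM of the groups did not overlap, where that held for 73.6% of all genes tested. Scaling by library totals alone shifted log2 fold changes by a median of -0.26, and log2(TPM + 1) values (TPM is a level scaled for transcript length and depth) by -0.20. On both, 4 of the 10 genes were called higher, namely Ptgs2, Ptges, Ptger2 and Pla2g4a. Ptger2 is again counted through its LPS libraries alone. Of all 11916 genes, 2679 were called higher on library totals and 2795 on log2(TPM + 1). In bulk RNA a change in the number of cells that express a gene and a change in RNA per cell cannot be told apart.

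**Figure D1:**
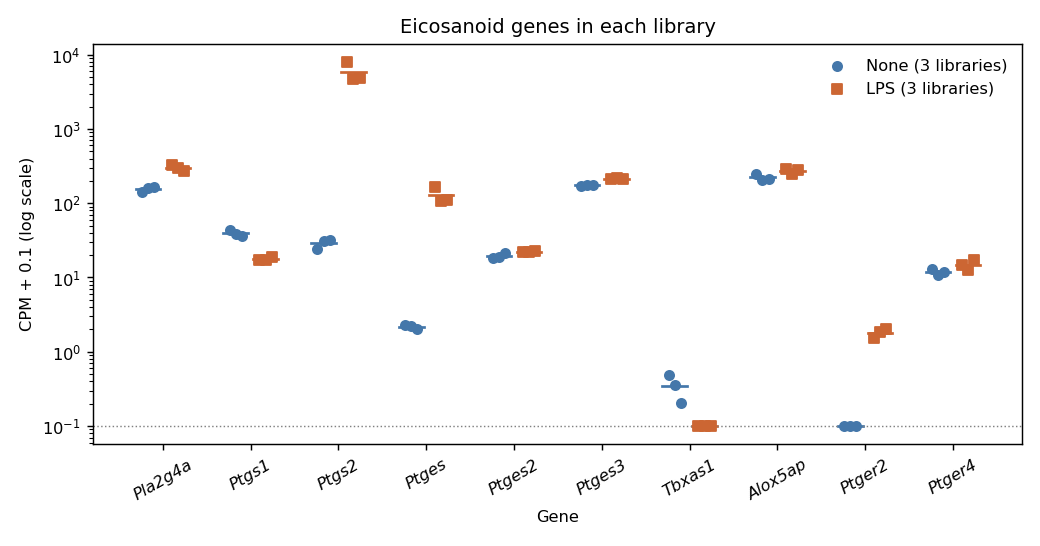
CPM plus 0.1 on a log axis for each of the 10 genes, with 1 point per library (circles None, squares LPS) and a bar at the group mean; the dotted line marks 0 CPM. Ptgs2 reaches 4648 to 7927 CPM in LPS from 24.2 to 31.4 CPM in None, and the groups of Ptger4 overlap.

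Release of arachidonic acid is the step of Pla2g4a, the calcium-dependent cytosolic phospholipase A2 (chromosome 1, 149829618 to 149961290, minus strand, GRCm38). Its level was 143, 162 and 163 CPM in None replicates 1 to 3 and 331, 295 and 270 CPM in LPS replicates 1 to 3. Every LPS library was above every None library. The gene rose 1.91-fold (log2 fold change 0.94, SE 0.09, adjusted p 1.49e-06 by edgeR's quasi-likelihood test). On library totals the log2 fold change of Pla2g4a was 0.68 and still called.

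Ptgs2, the inducible cyclooxygenase, carried the largest change in level of the 10 genes. The gene lies on chromosome 1 (150100031 to 150108227, plus strand, GRCm38), 138740 bases from Pla2g4a. It was at 24.2, 31.1 and 31.4 CPM in None and at 7927, 4648 and 4862 CPM in LPS. The groups lay far apart, and LPS replicate 1 was 1.67 times the mean of the other LPS libraries. The gene rose 201.0-fold, with a log2 fold change of 7.65 (SE 0.24), a 95% interval from 7.14 to 8.16 and an adjusted p of 5.55e-11. Without LPS replicate 1 the log2 fold change of Ptgs2 was 7.36. Among all 11916 genes it had the 52nd largest log2 fold change. That ranking includes genes with 0 counts in None, such as Ptger2 at rank 46, whose fold varies with the fit's prior count. By TPM Ptgs2 stood between ranks 7561 and 8286 of all genes in the None libraries and between ranks 79 and 153 in the LPS libraries. It took 0.437% to 0.713% of all counts in an LPS library, against 0.00262% to 0.00344% in a None library.

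Ptgs1, the cyclooxygenase usually described as constitutive, went the other way. The gene (chromosome 2, 36230426 to 36252272, plus strand) was at 43.1, 38.8 and 36.1 CPM in None and at 17.3, 16.9 and 19.0 CPM in LPS. All LPS libraries were below all None libraries. It fell 2.21-fold (log2 fold change -1.15, SE 0.10, adjusted p 5.27e-07), or -1.41 on the log2 scale with library totals.

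The balance of the cyclooxygenases changed sides. Per length, Ptgs1 exceeded Ptgs2 in each None library, by 3.23, 2.27 and 2.12 times in TPM. In LPS, Ptgs2 exceeded Ptgs1 by 233, 160 and 133 times. Ptgs2 made up 23.7%, 30.6% and 32.0% of their summed TPM in None and 99.6%, 99.4% and 99.3% in LPS. The difference of means was 70.6 percentage points, with an exact two-sided permutation p of 0.1, the smallest that 3 libraries against 3 can give. Most of the move came from Ptgs2, whose TPM went from a mean of 8.43 to 1456 while that of Ptgs1 went from 21.0 to 8.30.

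The promoters of Ptgs2, Ptges and Ptgs1 are shown because the first pair rose most among the enzymes while Ptgs1 fell. Sequences are RefSeq's for GRCm38.p6, from 250 bases before the annotated start to 50 after it, read 5′ to 3′ on the gene's strand, and 9 of the 10 genes matched an entry. Capitals mark every match, on either strand, to the TATA box (TATAAA), the E-box (CACGTG), the core of the cyclic AMP response element (TGACG), the C/EBP motif (TTGCNNAA), the AP-1 motif (TGANTCA), the GC box (GGGCGG) or the NF-kappaB consensus. Ptgs2 lies at chr1:150099781-150100080 on the plus strand, Ptges at chr2:30903248-30903547 on the minus strand, and Ptgs1 at chr2:36230176-36230475 on the plus strand. RefSeq's start of Ptges lies inside the span that the deposited table gives for the gene.
Ptgs2: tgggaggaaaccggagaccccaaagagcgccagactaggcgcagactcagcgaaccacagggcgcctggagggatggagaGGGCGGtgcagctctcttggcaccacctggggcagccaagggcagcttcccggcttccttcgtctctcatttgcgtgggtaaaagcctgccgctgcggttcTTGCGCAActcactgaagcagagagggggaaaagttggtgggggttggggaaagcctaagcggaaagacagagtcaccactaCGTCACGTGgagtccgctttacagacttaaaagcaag
Ptges: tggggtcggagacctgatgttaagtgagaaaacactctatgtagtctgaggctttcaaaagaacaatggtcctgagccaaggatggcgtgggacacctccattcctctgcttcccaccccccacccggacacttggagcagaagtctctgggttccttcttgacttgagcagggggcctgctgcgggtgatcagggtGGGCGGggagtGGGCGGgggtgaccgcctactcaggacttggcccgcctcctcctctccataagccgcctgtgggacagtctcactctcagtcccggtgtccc
Ptgs1: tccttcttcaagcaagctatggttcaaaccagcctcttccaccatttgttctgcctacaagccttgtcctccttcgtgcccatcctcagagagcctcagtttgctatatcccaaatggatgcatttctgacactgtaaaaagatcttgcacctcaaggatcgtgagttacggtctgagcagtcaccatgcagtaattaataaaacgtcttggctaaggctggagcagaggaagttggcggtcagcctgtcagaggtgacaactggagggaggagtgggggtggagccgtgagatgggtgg
Ptgs2 had a C/EBP match at -69 to -62, which reads the same on both strands, a GC box at -170 to -165, and an E-box at 17 to 22 that overlaps a reverse-strand cyclic AMP element core at 14 to 18, counted from 1 at the annotated start. Ptges had 2 GC boxes, at -53 to -48 and -42 to -37, and Ptgs1 had no match. Other genes of the set held matches too, also those that moved little. Ptges3 had GC boxes, a cyclic AMP element core and an NF-kappaB match, Ptger4 had GC boxes, and Ptges2 had an E-box. Ptger2 had a C/EBP match, Tbxas1 had TATA box and AP-1 matches, and Pla2g4a had a TATA box match in its second promoter only. Of the 32851 promoters in the table, 10.8% held the C/EBP motif, 7.15% the E-box, 20.8% the cyclic AMP element core, 35.7% the GC box, 13.6% the TATA box, 7.81% the AP-1 motif and 8.46% the NF-kappaB consensus. GC content was 59.3% for Ptgs2, 60.0% for Ptges and 50.7% for Ptgs1, with a median of 52.7% over all promoters. These matches describe letters in a window and were not tested for factor binding.

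The Ptgs2 transcript is also known for repeats of the pentamer ATTTA, bound by proteins that control messenger RNA decay, at the start of its 3′ untranslated region. The stretch from base 12 to 41 of that region (GENCODE M21), shown because it has the most pentamers in any 30 bases, reads as follows, with the pentamers in capitals.
Ptgs2: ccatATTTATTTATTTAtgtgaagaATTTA
It holds 4 overlapping or separate copies on the sense strand. The whole region of Ptgs2 held 14 copies in 2445 bases. Of 10599 genes tested with an annotated region, 2.24% held at least as many and 4.93% were at least as dense. Pla2g4a held 4 in 443 bases, a density of 9.03 per kilobase that 1.36% of genes reached, while 26.6% held at least as many copies. Genes that moved little held copies too, with 5 in Ptger4, 4 each in Ptges2 and Ptges3, and 2 in Alox5ap. The density of Alox5ap, 4.77 per kilobase, was reached by 7.48% of genes. Ptger2 held 6. Ptges (3106 bases), Ptgs1 (921 bases) and Tbxas1 (215 bases) held none.

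**Figure D2:**
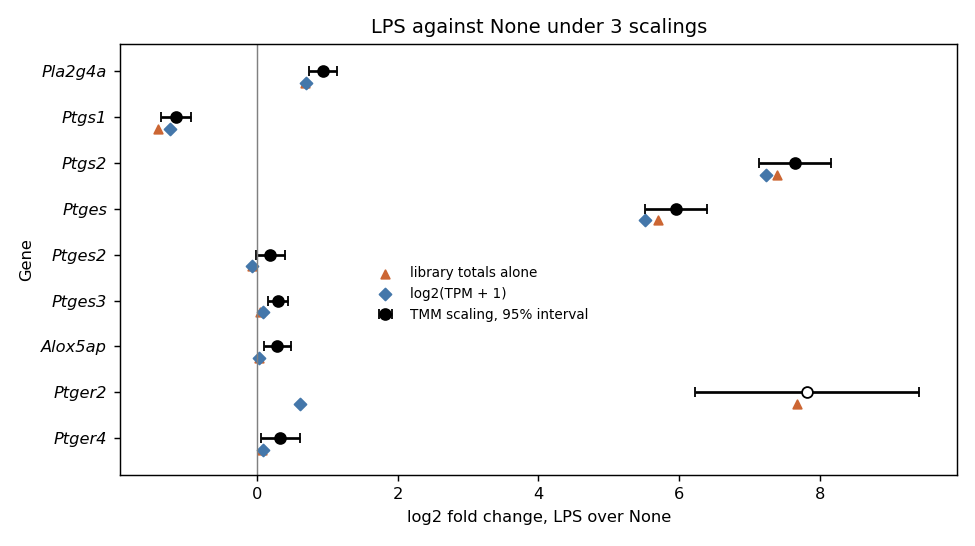
log2 fold change of LPS over None for the 9 tested genes, as black points with 95% intervals under TMM scaling, triangles with library totals alone and diamonds on log2(TPM + 1). The position of the hollow Ptger2 point varies with the fit's prior count, and Ptges2, Ptges3, Alox5ap and Ptger4 lie near 0 on the other scalings.

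Ptges encodes microsomal prostaglandin E synthase, which works downstream of Ptgs2 (chromosome 2, 30892296 to 30929863, minus strand). It was at 2.17, 2.12 and 1.91 CPM in None and at 167, 108 and 110 CPM in LPS. The groups did not overlap, and LPS replicate 1 was again the highest, at 1.53 times the mean of the other LPS libraries. Ptges rose 62.0-fold (log2 fold change 5.95, SE 0.20, adjusted p 1.16e-10), or 5.72 on the log2 scale without LPS replicate 1. Its TPM in None was 1.54, 0.78 and 0.68 from 40, 41 and 37 counts, so the length scaling of this low level differed between libraries of near equal counts.

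The other enzymes with this activity moved little. Ptges2, a membrane-associated prostaglandin E synthase (chromosome 2, 32395896 to 32405772, plus strand), was at 17.96, 19.0 and 21.3 CPM in None and between 21.95 and 22.6 CPM in LPS. The LPS libraries were slightly above the None libraries, yet Ptges2 was not called (log2 fold change 0.19, 95% interval -0.01 to 0.40, adjusted p 0.0895), and its value was -0.07 on library totals. Ptges3, the cytosolic synthase also known as the Hsp90 cochaperone p23, lies on chromosome 10 (128058954 to 128077272, plus strand). It was at 170, 176 and 174 CPM in None and at 211, 218 and 212 CPM in LPS. Ptges3 was called higher at 0.30 (SE 0.07, adjusted p 0.00126), but at 0.05 and not called on library totals and at 0.08 and not called on log2(TPM + 1).

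Ptges made up 1.13%, 0.560% and 0.503% of the summed TPM of Ptges, Ptges2 and Ptges3 in None, and 43.5%, 34.0% and 37.5% in LPS. The difference of means was 37.6 percentage points (exact two-sided permutation p 0.1, the smallest possible here). Ptges was below Ptges2 in every None library and 8.36, 5.25 and 6.71 times above it in LPS. It stayed below Ptges3 in every library, with Ptges3 at 1.18 to 1.75 times Ptges in LPS.

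**Figure D3:**
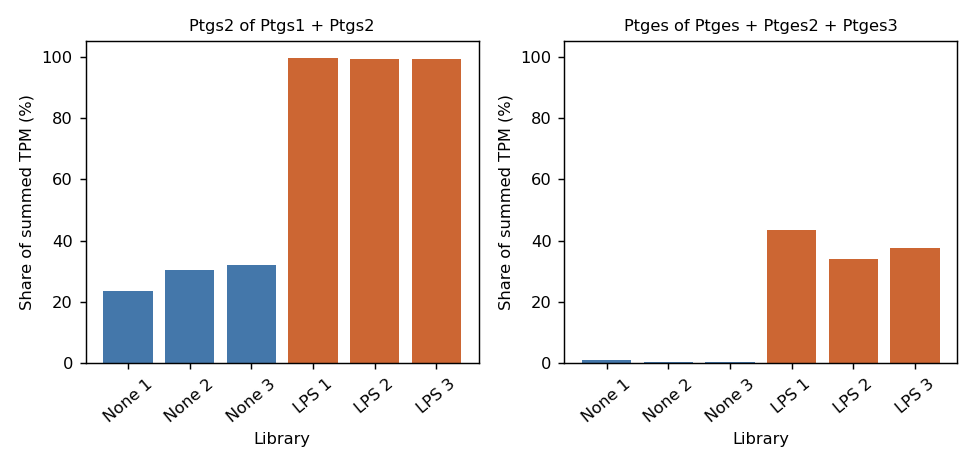
Share of summed TPM in each library, for Ptgs2 among the cyclooxygenase genes (left) and for Ptges among the prostaglandin E synthase genes (right). Ptgs2 goes from 23.7% to 32.0% in None to over 99% in LPS, and Ptges from 0.503% to 1.13% to between 34.0% and 43.5%.

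Tbxas1 encodes thromboxane synthase, which competes for the same prostaglandin H (chromosome 6, 38918980 to 39084585, plus strand). It had 7, 5 and 2 counts in None and 0 in each LPS library, or 0.380, 0.258 and 0.103 CPM against 0. The gene was too low for the test across all genes. Against a floor of 3 counts over the LPS group it was at least 3.41-fold lower in LPS, a bound that covers counting error only. With no filter on low counts Tbxas1 was called lower, but all its counts lie in the None libraries, so no p-value is given for it.

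Of the leukotriene branch the set holds Alox5ap, the membrane protein that presents arachidonic acid to Alox5 (chromosome 5, 149264767 to 149288153, plus strand). It was at 246, 209 and 214 CPM in None and at 289, 249 and 279 CPM in LPS. The ranges did not overlap, but LPS replicate 2 lay close to None replicate 1. Alox5ap was called higher by 0.29 (SE 0.09, adjusted p 0.0101). The call was lost on library totals (0.03) and without None replicate 2 (0.24, adjusted p 0.0644). In TPM it was 398, 334 and 320 in None and 377, 335 and 360 in LPS, which overlap.

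Among the receptors, Ptger2 had counts in the LPS libraries and none in the None libraries. The gene (chromosome 14, 44988195 to 45003820, plus strand) had 0 counts in each None library and 20, 24 and 27 in LPS, or 1.42, 1.74 and 1.95 CPM. Against a floor of 3 counts over the None group it was at least 32.4-fold higher in LPS. Since Ptger2 passed the filter through its LPS libraries alone, no p-value is given for it. An annotated antisense gene on the other strand, Gm17173, had 0 counts in None and 2, 2 and 1 in LPS. No source used here says whether the libraries keep strand, so reads of the pair cannot be told apart.

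Ptger4 was the more abundant of the prostaglandin E receptors in the set (chromosome 15, 5206661 to 5242710, minus strand). It was at 12.9, 10.9 and 11.7 CPM in None and at 14.8, 12.6 and 17.2 CPM in LPS. The groups overlapped, since LPS replicate 2 was below None replicate 1. Ptger4 was called higher at 0.33 (SE 0.13, adjusted p 0.0362), and the call was lost on library totals (0.07), on log2(TPM + 1) (0.08), without LPS replicate 1 (0.33), without LPS replicate 3 (0.23), without None replicate 2 (0.27) and without None replicate 3 (0.32). Ttc33, which overlaps it on the other strand, fell (log2 fold change -0.63, adjusted p 6.91e-05). Per length Ptger4 exceeded Ptger2 in each LPS library, by 11.7, 8.15 and 9.91 times in TPM, and Ptger2 was listed at 0 in None. Ptger4 thus made up 92.1%, 89.1% and 90.8% of their summed TPM in LPS, and 100% in None because Ptger2 is at 0 there.

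Ordered by mean TPM, the None libraries had Alox5ap first at 350, then Ptges3 at 122, Pla2g4a at 77.8, Ptgs1 at 21.0, Ptges2 at 14.1, Ptgs2 at 8.43, Ptger4 at 4.78, Ptges at 1.00 and Tbxas1 at 0.157, with Ptger2 listed at 0. No neighbours in that order overlapped over the 3 libraries. In LPS the order was Ptgs2 at 1456, Alox5ap at 357, Ptges3 at 129, Pla2g4a at 127, Ptges at 89.5, Ptges2 at 13.3, Ptgs1 at 8.30, Ptger4 at 5.13 and Ptger2 at 0.523, with Tbxas1 listed at 0. There Ptges3 and Pla2g4a overlapped. Ptgs2 thus passed all other genes of the set, and Ptges passed Ptges2, Ptgs1 and Ptger4.

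The genes nearest in pattern to Ptgs2 over the 6 libraries, by Euclidean distance of centred log2 CPM, were Hdc at 0.41, Col5a3 at 0.55, Gstt1 at 0.59, Cxcl2 at 0.66 and Irf7 at 0.83. Hdc makes histamine, Cxcl2 is a neutrophil chemokine and Irf7 an interferon response factor. Like Ptgs2, Hdc was highest in LPS replicate 1, at 82.7 CPM against 45.1 and 56.4 CPM in the other LPS libraries and 0.155 to 0.163 CPM in None. Nearest to Ptges were Cd93 at 0.35, the kinase gene Src at 0.36, the fatty acid carrier Cd36 at 0.44, Etv4 at 0.47 and the phosphatase Dusp5 at 0.57. Src was at 41.3, 22.6 and 24.3 CPM in LPS and 0.414 to 0.517 CPM in None. Hdc and Src were chosen by their values in these same 6 libraries, so a shared high LPS replicate 1 is favoured by the choice. Col5a3 and Cd93 had 0 counts in None, so their distances depend on the prior count of 2. The same holds for Hdc, for Gstt1 (0.163 to 0.310 CPM in None) and for Etv4 (0.0543 to 0.103 CPM), which were near 0 there. In the fit on counts the log2 fold change of Hdc was 8.54, against 7.65 for Ptgs2. On library totals 4 of the 5 genes nearest to Ptgs2 and 5 of the 5 nearest to Ptges were the same.

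The rest of the pathway was read from 8 lists with 95 further genes, of which 61 passed the filter, 30 were called higher, 20 lower and 11 not called, with a median log2 fold change of 0.23. Folds and log2 fold changes of these genes come from the fit on TMM-scaled counts, while TPM is printed as the length-scaled level, so the fold of the TPM levels can differ. The counts of each list below include its members among the 10 genes. Over all 11916 genes tested 34% were called higher and 35.1% lower, and no list was tested as a set. Scaling changes such splits. On library totals 22 of the 95 genes were called higher and 25 lower, and of all genes 2679 and 6076. Of 14 arachidonate release genes 9 were tested, 7 higher and 1 lower (median 0.76). The secreted phospholipase Pla2g5 was at 11.3, 12.2 and 12.1 TPM in None and 59.8, 70.0 and 65.7 TPM in LPS. In the fit on counts Pla2g5 rose 6.36-fold and the secreted Pla2g2e rose 3.49-fold. Pla2g12a (0.92), the phospholipase inhibitor annexin Anxa1 (0.36) and Plaa (0.26) were called higher on the log2 scale, although Anxa1 and Plaa lost the call on library totals and on TPM values. Pla2g4a thus had the secreted Pla2g5 and Pla2g2e moving the same way.

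Of 14 genes that handle arachidonate 13 were tested, with 6 higher and 6 lower (median -0.01). Acsl4, which couples arachidonate to coenzyme A, rose 2.98-fold, and the lipid carrier Fabp5 rose 5.09-fold. Acsl3 (0.94) and the acyltransferase Lpcat3 (0.51) were also called higher, and Lpcat3 lost the call on TPM values. The lipase Daglb fell 2.90-fold and the lipase Abhd12 fell by 0.65 on the log2 scale. Lpcat3 overlaps Emg1 on the other strand, which was called higher at 0.54, and Daglb overlaps Rac1, at -0.09 and not called.

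Among 12 prostanoid synthases, with 8 tested, 4 called higher and 2 lower (median 0.25), the members above held the largest increases. The other gene called lower was Hpgds, which makes prostaglandin D. Hpgds was at 43.76, 40.72 and 41.95 TPM in None and at 3.80, 7.72 and 8.43 TPM in LPS. In the fit on counts it fell 8.28-fold (90.3 ± 1.46 to 10.9 ± 2.15 CPM, SD, n = 3, adjusted p 3e-10 by edgeR). The prostaglandin F synthase Akr1b3 was called higher at 0.86, and Cbr1 at 0.01 was not called. Ptgis, the prostacyclin synthase, had 0 counts in None and 4 in LPS. Per length, Hpgds exceeded Ptges in every None library and Ptges exceeded Hpgds in every LPS library.

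Of 8 genes for prostaglandin transport and breakdown 5 were tested, 2 higher and 2 lower (median 0.10). The reductase Ptgr1, which inactivates prostaglandins and leukotriene B, rose 7.19-fold, and the exporter Abcc4 was called higher at 0.45. Ptgr2 (-0.26) and Zadh2 (-0.32) were called lower, and Ptgr2 turned to 0.13 on TPM values. Abcc4 lost its call on filtered log2(TPM + 1) values. The degrading enzyme Hpgd was at 0 counts in all 6 libraries.

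Of 10 prostanoid receptors 4 were tested, 3 higher and 1 lower (median 0.83, also with Ptger2 at its bound). The 3 include Ptger2, which passed the filter through its LPS libraries alone. The 1 called lower was Ptger1, with 62, 55 and 53 counts in None and 5, 9 and 6 in LPS. Ptger1 passed the filter through its None libraries alone, so its call is a description only. The prostacyclin receptor Ptgir was at 19.9, 18.6 and 18.5 TPM in None and 41.8, 41.2 and 38.6 TPM in LPS, and rose 2.52-fold in the fit on counts. By TPM it exceeded Ptger4 in every library. The EP1 receptor Ptger1 was at 1.75, 1.74 and 1.00 TPM in None and 0.10, 0.19 and 0.17 TPM in LPS. In the fit on counts it fell 6.13-fold, and its reads cannot be told apart from any on the other strand. Ptgdr2, Tbxa2r and Pparg had 6, 2 and 1 counts in None and 0, 0 and 1 in LPS.

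On the list of leukotriene and lipoxygenase enzymes, which is wider than leukotriene synthesis, Alox5, Ltc4s, Mgst3 and Ephx1 fell and Abcc1 rose. Of 19 genes 9 were tested, 4 higher and 4 lower (median -0.01). Alox5 was at 154, 150 and 137 TPM in None and 32.5, 39.7 and 37.1 TPM in LPS, and fell 3.58-fold in the fit on counts (adjusted p 1.46e-09 by edgeR). Ltc4s, which makes leukotriene C, fell 3.26-fold and Mgst3 fell 4.03-fold, while Lta4h, which makes leukotriene B, was at -0.01 and not called, although it was called lower on library totals (-0.27, adjusted p 0.00853). An antisense gene that overlaps Ltc4s, Gm26542, had 21 to 32 counts in None and 3 to 4 in LPS. The exporter Abcc1 rose 4.48-fold, Mgst2 (0.50) and the dipeptidase Dpep2 (0.73) were called higher, and the epoxide hydrolase Ephx1 fell 4.09-fold. Per length Alox5ap exceeded Alox5 in every library.

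Of 5 leukotriene receptors 2 were tested, and they went opposite ways. The leukotriene B receptor Ltb4r1 was at 1.36, 1.42 and 0.77 TPM in None and 7.02, 6.38 and 5.17 TPM in LPS. The cysteinyl leukotriene receptor Cysltr1 was at 25.3, 19.7 and 21.8 TPM in None and 3.19, 3.26 and 3.23 TPM in LPS. In the fit on counts Ltb4r1 rose 6.10-fold and Cysltr1 fell 5.60-fold. Ltb4r2 had 2 counts in None and 1 in LPS, and Cysltr2 and Oxgr1 had 0.

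Behind Ptger2 and Ptger4, 20 of 23 genes of cyclic AMP signalling were tested, with 10 higher and 4 lower (median 0.28). The phosphodiesterase Pde4b rose 3.35-fold, the cyclase Adcy3 rose 3.63-fold from 0.648 ± 0.0260 to 2.37 ± 0.306 CPM (SD, n = 3), and Adcy6 fell 6.64-fold to 0.143 ± 0.122 CPM. Adcy6 rests on 16, 23 and 18 counts in None and 4, 1 and 1 in LPS, and without LPS replicate 1 its log2 fold change went from -2.73 to -3.66. The 4 called lower include Adcy6, which passed the filter through its None libraries alone, so its call is a description only. Arrb1, an arrestin that uncouples receptors, fell 2.27-fold. The G protein gene Gnas was called higher at 0.44, and Prkar1a (0.18, adjusted p 0.0506) and Arrb2 (0.12) were not called. Prkar1a was called higher with DESeq2 (0.20, adjusted p 0.0264).

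**Figure D4:**
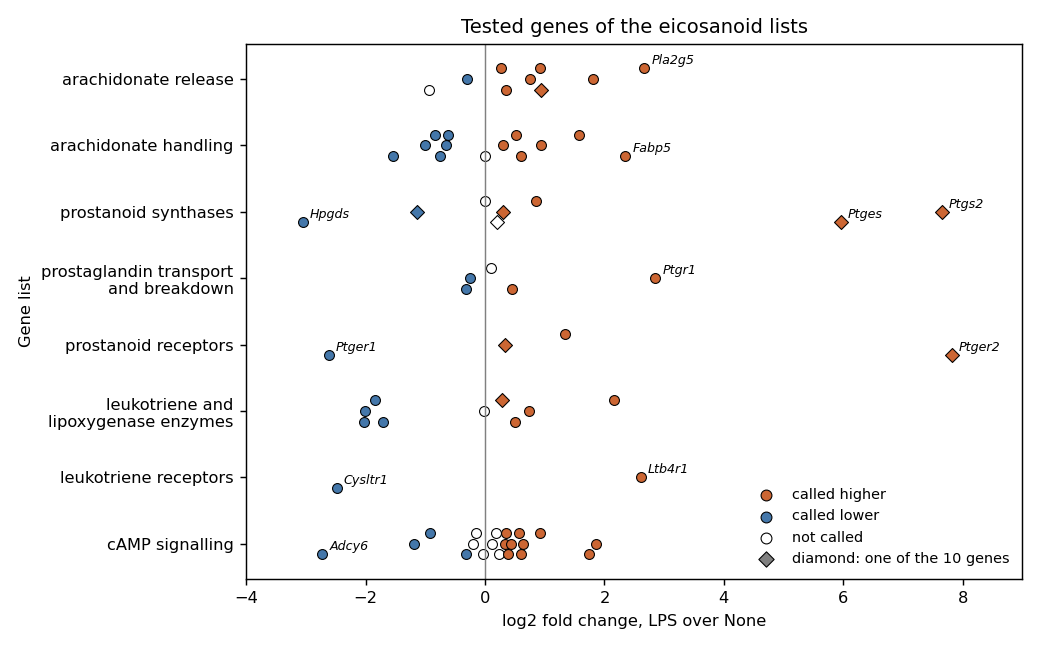
log2 fold change of LPS over None (TMM scaling) for each tested gene of the 8 lists, coloured by call, with diamonds for the 10 genes of the set. Prostanoid synthases and receptors hold both the largest increases (Ptgs2, Ptges and Ptger2, the last depending on the prior count) and decreases such as Hpgds and Ptger1. Ptger1 passed the filter through its None libraries alone.

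**Figure D5:**
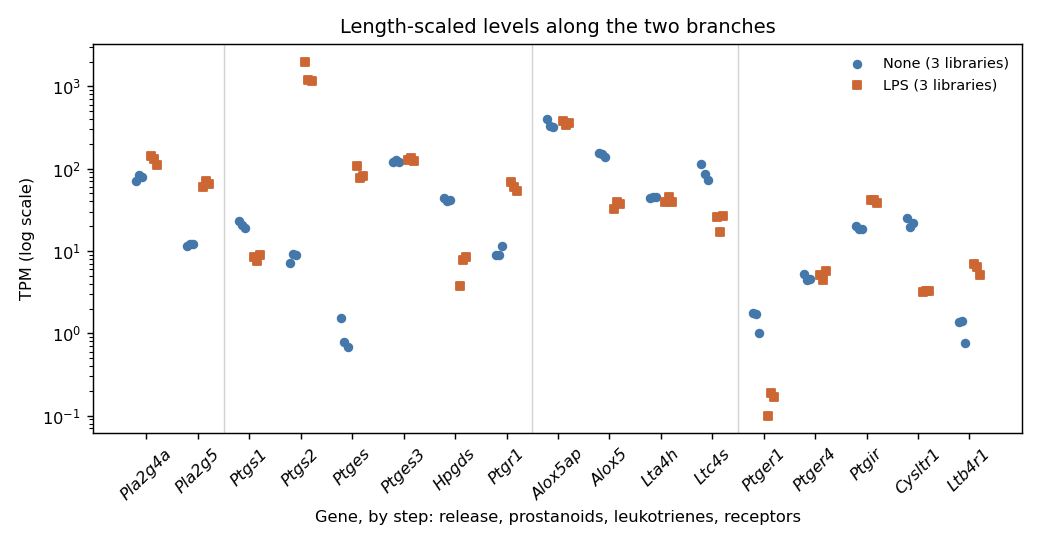
TPM on a log axis in each library (circles None, squares LPS) for genes of arachidonate release, the prostanoid branch, the leukotriene branch and the receptors, separated by grey lines. Ptgs2 and Ptges rise above Ptgs1 and Hpgds in LPS, while Alox5 and Ltc4s lie lower and Alox5ap overlaps.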

How the data were processed

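Total RNA of RAW-Blue cells was sequenced as paired reads and filtered with SOAPnuke, per the labels' protocols. STAR 2.7.10a, RSEM 1.3.1 and the build GRCm38 are named in the submitters' processing notes. The deposited estimated counts per gene need not be whole, and the deposited TPM values are the authors' scaling of these for length and depth. Strand and RNA selection are not given in the sources used here.

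In each file, 6 library columns matched the None and LPS labels, and 12 others matched no label and were not used. Counts were rounded, and 530 genes without a symbol (0.0231% to 0.0318% of counts) were kept. In R 4.3.3, edgeR 4.0.16 dropped low genes with filterByExpr (count minimum 10, total 15) and scaled by TMM. The test was a quasi-likelihood model over all genes (glmQLFit, glmQLFTest, two-sided, Benjamini-Hochberg, threshold 0.05). SEs are the log2 fold change over the root of the F statistic. Where a group had no counts, 3 counts for that group were used as the floor, and the bound covers counting error only. The fit was tested on simulated counts in which a small part of the genes changed, as many up as down. In these data 69.1% of genes were called, so that test does not check the scaling. No replicate pair matched within sampling noise (chi-square over degrees of freedom 3.32 to 17.5). Shares were compared by exact permutation in scipy 1.17.1. Alternatives were RLE size factors, library totals, DESeq2 1.42.0, other filters, limma 3.58.1 on log2(TPM + 1) and log2(TPM + 0.1), a replicate block, and leaving out each library.

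The members and the pathway lists were chosen with earlier results of these data known. Apart from the members, the text names list genes called with a log2 change of at least 1 and up to 3 others per list with the highest mean TPM, and the 5 genes nearest to Ptgs2 and Ptges. Overlapping genes on the other strand, Hpgd, and Hpgds against Ptges were chosen after their values were seen. Start positions in the deposited tables were raised by 1, and 7 of 10 genes then had the end points of GENCODE M21. Some results on other genes are not reported here.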

Additional observations from a re-analysis of the deposited data

How the results depend on the processing

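The changes of Ptgs2 (7.23 to 7.80), Ptges (5.51 to 6.41), Pla2g4a (0.68 to 1.01) and Ptgs1 (-1.41 to -1.08) kept their direction and call under all 15 alternatives. Library totals left 2679 of all genes called higher in place of 4052, and calls higher made up 30.6% of all calls on totals and 35.2% on log2(TPM + 1), against 49.2% in the report. Of the 10 genes, 4 were called higher on totals and on each TPM setting, among them Ptger2, which has counts in its LPS libraries alone. With no filter on low counts or low TPM, 2 were called lower, since Tbxas1, which has counts in its None libraries alone, was then tested. With CPM in place of TPM the share of Ptgs2 among the cyclooxygenases differed by 57.4 percentage points. Leaving out each library in turn gave 5 to 7 genes of the set called higher.

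Small changes turned sign. On library totals Ptges2 was at -0.068, Cbr1 at -0.25, Prkar1a at -0.080 and Arrb2 at -0.14. On log2(TPM + 1), filtered or not, Ptges2 was at -0.072, Cbr1 at -0.21, Ptgr2 at 0.13, Prkar1a at -0.050 and Arrb2 at -0.033, and on log2(TPM + 0.1) they were at -0.077, -0.23, 0.13, -0.050 and -0.033. Cbr1 was also at -0.0072 with no filter on low counts. Leaving out 1 library at a time gave -0.14 (without LPS replicate 3) to 0.10 (without LPS replicate 1) for Cbr1 and -0.049 (without LPS replicate 2) to 0.018 (without LPS replicate 1) for Lta4h, which was at 0.012 with DESeq2 and with RLE size factors. Prkar1a was called higher at 0.20 with DESeq2 and with RLE size factors, at 0.18 with a replicate block, and at 0.22 without LPS replicate 3 or without None replicate 1. Lta4h was called lower on library totals (-0.27). Adcy6 was not tested under the filter of 1 CPM in 3 libraries. The causes were not tested.

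Replicate numbers were not treated as pairs, since deviations of same-numbered libraries correlated at 0.08, -0.02 and 0.01, and not every library correlated best with its own number. With a replicate block 7 genes of the set were called higher and 1 lower, Ptgs2 was at 7.61 and Ptges at 5.94, and Cbr1 was at -0.0015. The depth limits Tbxas1 and Ptger2, whose groups at 0 counts allow only bounds.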

Other observations

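A pair of long non-coding RNA genes named for Ptgs2 lie on the other strand of the same chromosome, Ptgs2os alone beside it. They were looked up by name after the results were known. Ptgs2os (chromosome 1, 150074873 to 150099817) is separated from Ptgs2 by 213 bases. It had 0 counts in each None library and 7 in each LPS library, or at least 9.59-fold higher if the None group is given 3 counts, and was too low for the test. Ptgs2os2 (150159043 to 150164948) lies farther off, past the end of Ptgs2 at 150108227. It was at 1.63, 1.65 and 1.55 CPM in None and at 9.16, 7.55 and 4.98 CPM in LPS. It rose 4.47-fold (log2 fold change 2.16, SE 0.24, adjusted p 4.59e-06 by edgeR), and LPS replicate 1 was its highest library, as for Ptgs2.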
